A study of Mus musculus with 62 samples.

Results

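The genes described here are lysosomal hydrolases and membrane proteins, 34 of the 37620 genes in the raw count table, taken from it by name. They comprise 10 proteases (Ctsa, Ctsb, Ctsc, Ctsd, Ctsh, Ctsl, Ctss, Ctsz, Lgmn and Tpp1), 9 glycosidases (Gaa, Gla, Glb1, Gusb, Hexa, Idua, Man2b1, Naglu and Neu1), 7 lipid hydrolases and lipid handling proteins (Asah1, Lipa, Npc1, Npc2, Ppt1, Psap and Smpd1), 6 membrane proteins (Cd63, Cd68, Lamp1, Lamp2, Mcoln1 and Scarb2), progranulin (Grn) and the transcription factor Tfeb. The question was how this module behaved when clonal mouse progenitors matured into monocytic cells, and how it differed among sorted primary monocytes.

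RNA was sequenced in 62 libraries, 48 of them from 24 mouse clones numbered 1 to 13 and 15 to 25 and 14 from primary monocytes sorted by flow cytometry from mouse bone marrow. Each clone was an ER-Hoxb8 line, in which an estrogen-dependent form of Hoxb8 holds granulocyte-monocyte progenitors (GMP) in division, and each gave 1 library as progenitor (labelled Plus) and 1 as monocytic cells (labelled Minus). The lines were kept in RPMI medium with serum, antibiotics and stem cell factor. The primary libraries came as pairs from 7 populations: classical, intermediate and nonclassical monocytes, and class 1, class 2, class 3 and class 4. All clone libraries carried the Hoxb8 fusion, the primary cells did not, and with 1 library per clone and state a clone cannot be told apart from its library. The labels gave no strain, age, sorting gate or definition of the classes and put no clone in a class. They also did not say that libraries of a group came from separate cultures or animals, so the p-values below measure only the spread between these libraries, which may be technical.

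Lysosomes are acidic organelles in which cathepsins, glycosidases and lipases break down material taken up by endocytosis, phagocytosis or autophagy. Most of the soluble enzymes are tagged with mannose 6-phosphate in the Golgi and sorted to the lysosome, while heavily glycosylated proteins such as Lamp1 and Lamp2 line its membrane. Monocytes and macrophages are rich in these enzymes, and Tfeb switches on many lysosomal genes through short E-box sites in their promoters.

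Library totals ran from 0.362 to 47.3 M counts in the clone libraries and from 21.2 to 35.0 M counts in the primary libraries. Monocytic libraries of clones 15 to 25 were the shallower set (1.83 to 9.12 M, against 22.9 to 34.5 M in clones 1 to 13), and the progenitor library of clone 21 was the shallowest of all. The 6 progenitor markers (Cd34, Kit, Flt3, Myb, Sox4 and Gata2) summed to 1992 to 5167 CPM (counts-per-million) in progenitor and 89.0 to 1061 in monocytic libraries, and the 6 monocyte markers (Csf1r, Cd14, Itgam, Lyz2, Fcgr1 and Cybb) to 56.9 to 2371 and 3352 to 62009. The 8 neutrophil markers, among them Ngp and Camp, also differed widely among monocytic libraries (119 to 71108 CPM), as did the 6 basophil and mast cell markers (1.30 to 10293 CPM). In bulk RNA, fewer cells of a type and less RNA per cell cannot be told apart. CPM throughout were taken over each library's total after scaling by edgeR's trimmed mean of M values (TMM).

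With maturation the module rose nearly as a whole. Of the 34 members, 31 were higher in monocytic than in progenitor cells, 1 was lower (Glb1) and 2 did not pass the test (Gaa and Gusb), in edgeR's quasi-likelihood test paired by clone with Benjamini-Hochberg adjustment over 11614 genes at 0.05. Over all genes tested, 38.5% were higher and 40.1% lower. The members' median log2 fold change was 1.44, against -0.02 for all genes tested. Counts on the 34 members made up 0.859% ± 0.136 of a progenitor library and 4.15% ± 2.22 of a monocytic library (SD, n = 24 clones), and in 24 of 24 clones it rose with maturation. It ran from 0.655% to 1.17% in progenitors and from 1.12% to 8.18% in monocytic cells, so the ranges overlapped only at their ends.

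**Figure D1:**
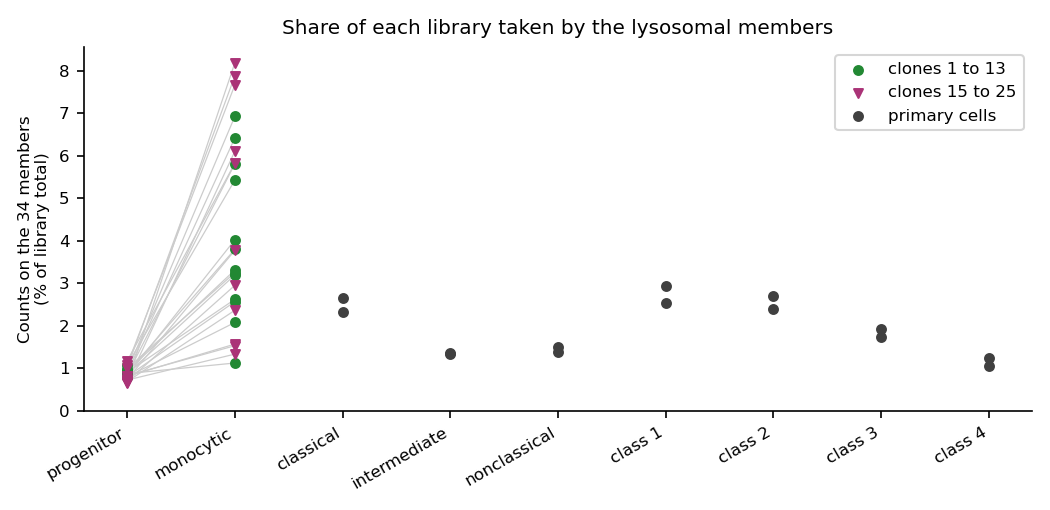
Share of each library's counts on the 34 members (y axis, % of the library total, from 0), 1 point per library; lines join the 2 libraries of a clone, and the primary groups follow by name on the x axis. Progenitor libraries lie between 0.655% and 1.17%, monocytic libraries between 1.12% and 8.18%, and every line runs upward.

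Most of the gain in counts lay in a few genes. Psap, Ctsd and Ctsb together held 30.8% of the members' counts in progenitors and 58.7% in monocytic cells (means over 24 clones). By role, the proteases went from 0.283% to 1.83% of a library, the lipid genes from 0.187% to 1.47%, the membrane proteins from 0.155% to 0.399%, and the glycosidases only from 0.19% to 0.254%. Monocytic clone 9 had the lowest share (1.12%) and clone 15 the highest (8.18%). The neutrophil markers summed to 71108 CPM in the former and 8648 in the latter, and the monocyte markers to 22159 and 32814. The order of the neutrophil markers did not hold throughout. Monocytic clone 22 had a share of 2.36% and the lowest neutrophil sum (119 CPM), and clone 13 a share of 6.41% and a sum of 34671 CPM. Clone 22 also had the lowest monocyte marker sum (3352 CPM) and the highest progenitor marker sum (1061 CPM) of the monocytic libraries. The markers' part in the share was not tested.

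All 10 proteases were higher in monocytic cells, with a median log2 fold change of 2.32. The 3 with the largest changes started from very low levels. Ctss, the cathepsin that trims the invariant chain of MHC class II, had a lowest, median and highest CPM of 1.35, 15.3 and 243 in progenitors and of 67.7, 1539 and 7555 in monocytic cells (log2 fold change 6.51 ± 0.55 SE, adjusted p = 2.11e-11). Lgmn, the asparaginyl endopeptidase that activates other cathepsins, had 0.226, 3.45 and 74.4 CPM in progenitors and 19.1, 280.2 and 1616 CPM in monocytic cells (6.28 ± 0.61, adjusted p = 3.34e-10). Both genes were higher in 24 of 24 clones, although the ranges overlapped. Progenitor clones 18 and 23 were the highest, at 243 and 179 CPM of Ctss and 54.0 and 74.4 CPM of Lgmn. Below the highest progenitor lay monocytic clones 9 and 19 for Ctss (167 and 67.7 CPM). For Lgmn these were monocytic clones 9, 17, 19, 21 and 22 (19.1 to 60.3 CPM). Ctsh, an aminopeptidase, went from 0, 0.135 and 5.97 CPM to 0, 25.7 and 96.8 CPM (6.45 ± 0.427, adjusted p = 2.61e-13) and was higher in 23 clones. It had no count in 7 libraries, which limits its fold change.

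Ctsb and Ctsd were the most counted proteases. Ctsb, a cysteine protease, had 127, 230.6 and 1117 CPM in progenitors and 863, 6257 and 15997 CPM in monocytic cells (log2 fold change 4.46 ± 0.272, adjusted p = 3.05e-14). Ctsd, the main aspartic protease of the lysosome, was high from the start, with 770.1, 1349.6 and 2449.7 CPM in progenitors and 2426, 5595 and 14630.4 CPM in monocytic cells (2.45 ± 0.181, adjusted p = 1.43e-12). In both cases 24 of 24 clones went up, and monocytic clone 19 was the lowest for Ctsb and clone 9 for Ctsd. Ctsa, a carboxypeptidase that also shields Neu1 and Glb1 from degradation, rose from a median of 212 to 779.9 CPM (2.05 ± 0.19, adjusted p = 1.45e-10), and Ctsz, another carboxypeptidase, from 198 to 807 CPM (2.20 ± 0.225, adjusted p = 8.62e-10). Smaller rises were those of the endopeptidase Ctsl (median 62.1 to 149 CPM, log2 fold change 1.53), of the tripeptidyl peptidase Tpp1 (125 to 302 CPM, 1.42) and of Ctsc (181 to 301 CPM, 0.71, adjusted p = 0.00114), the dipeptidyl peptidase that activates granule serine proteases. Ctsc was higher in 20 of 24 clones and its monocytic range, 63.3 to 1117 CPM, enclosed the progenitor range of 93.8 to 236 CPM.

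**Figure D2:**
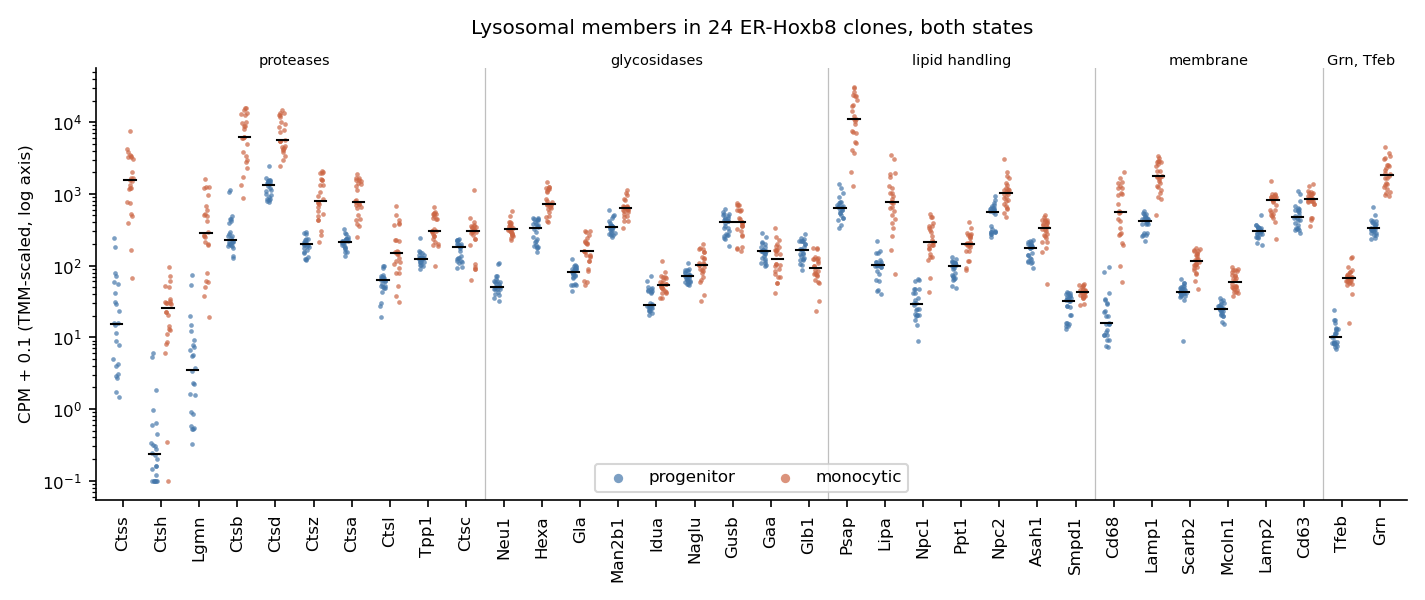
Level of each of the 34 members (x axis, grouped by role) in the 24 progenitor and 24 monocytic libraries (y axis, TMM-scaled CPM + 0.1, log axis); points are libraries and black bars medians. Ctss, Lgmn and Ctsh start at medians of 15.3, 3.45 and 0.135 CPM, while Ctsd and Psap are already at 1349.6 and 641 CPM in progenitors.

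Glycosidases, the enzymes that remove sugars from glycoproteins, glycolipids and glycosaminoglycans, changed least: 6 of 9 were higher, 1 lower, and the median log2 fold change was 0.76. The exception among them was Neu1, the sialidase. Its lowest, median and highest CPM were 32.4, 50.9 and 109.8 in progenitors and 229, 323 and 577 in monocytic cells, so the states did not overlap (log2 fold change 2.65 ± 0.0859, adjusted p = 1.71e-19, higher in 24 of 24 clones). Glb1, the acid β-galactosidase that forms a complex with Ctsa and Neu1, went the other way, from 87.1, 167 and 275 CPM to 23.3, 91.4 and 179 CPM (-0.82 ± 0.16, adjusted p = 3.98e-05). It was lower in 19 of 24 clones, and the ranges overlapped. The 3 genes of this complex therefore differed, with Neu1 and Ctsa higher and Glb1 lower.

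Hexa, a subunit of β-hexosaminidase, rose from a median of 336 to 728 CPM (log2 fold change 1.44 ± 0.142, higher in 24 clones). The α-galactosidase Gla went from 81.5 to 158 CPM (1.01 ± 0.151) and the α-mannosidase Man2b1 from 348 to 627 CPM (0.89 ± 0.117). Idua and Naglu, which degrade heparan sulfate (Idua also dermatan sulfate), rose by less than 1 on the log2 scale: from 28.5 to 53.3 CPM for Idua (0.76, adjusted p = 2.37e-07) and from 71.0 to 103 CPM for Naglu (0.57, adjusted p = 7.45e-04). Gusb, the β-glucuronidase, had medians of 402 and 400.1 CPM (0.10 ± 0.153, adjusted p = 0.567) and was higher in 12 of 24 clones. Gaa, the glucosidase that degrades glycogen, had medians of 159 and 125 CPM (-0.31 ± 0.152, adjusted p = 0.0607) and was higher in 10 clones.

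All 7 lipid genes were higher in monocytic cells (median log2 fold change 1.20). Psap encodes prosaposin, the precursor of the saposins that help hydrolases reach sphingolipids. Its lowest, median and highest CPM were 335, 641 and 1388 in progenitors and 1301, 10977 and 30505 in monocytic cells, a log2 fold change of 4.05 ± 0.241 (adjusted p = 1.84e-14, higher in 24 of 24 clones); only the lowest monocytic library, of clone 19, lay within the progenitor range. Lipa, the acid lipase that cleaves cholesteryl esters and triglycerides, had 40.2, 102 and 222 CPM in progenitors and 76.3, 771 and 3459.6 CPM in monocytic cells (3.03 ± 0.241, adjusted p = 6.11e-12). Npc1, the membrane protein that exports cholesterol from the lysosome, had 8.75, 28.9 and 64.3 CPM against 42.6, 211 and 517 CPM (2.91 ± 0.214, adjusted p = 1.26e-12). Its soluble partner Npc2 started higher and moved less, from a median of 565 to 1016 CPM (1.16 ± 0.178, adjusted p = 1.23e-06). Also higher were the thioesterase Ppt1 (98.6 to 203 CPM, 1.20), the acid ceramidase Asah1 (177 to 330.3 CPM, 0.94) and the acid sphingomyelinase Smpd1 (31.7 to 42.8 CPM, 0.68). Smpd1 was the steadiest member among monocytic clones, with an SD of log2 CPM of 0.252, against 1.77 for Lgmn and 1.56 for Ctss.

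Each of the 6 membrane proteins rose (median log2 fold change 1.39). Cd68, a macrophage glycoprotein of the Lamp family, went from 7.17, 15.6 and 94.5 CPM to 59.7, 568 and 2033 CPM (4.97 ± 0.293, adjusted p = 1.49e-14). Lamp1 had 223, 420.2 and 585 CPM in progenitors and 501, 1751 and 3363 CPM in monocytic cells (2.17 ± 0.144, adjusted p = 1.55e-13), and Lamp2 medians of 305 and 817 CPM (1.30 ± 0.124). All 3 Lamp family genes were higher in 24 of 24 clones, with ranges that overlapped; for Lamp2 the lowest monocytic library, of clone 19 at 233 CPM, lay below the progenitor median. Scarb2, the receptor that carries β-glucocerebrosidase to the lysosome, had medians of 43.4 and 116 CPM (1.44 ± 0.107). Mcoln1, the calcium channel of the lysosomal membrane, went from 15.3, 24.8 and 35.1 CPM to 38.1, 58.5 and 96.1 CPM without overlap (1.34 ± 0.107, adjusted p = 6.51e-12). The tetraspanin Cd63 changed least, from a median of 476 to 853 CPM (0.77 ± 0.14, adjusted p = 1.49e-05, higher in 20 clones).

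Grn, whose product progranulin is carried to the lysosome and cut there into granulins, had 233, 329.6 and 662 CPM in progenitors and 946, 1851 and 4473 CPM in monocytic cells. The states did not overlap, and the log2 fold change was 2.47 ± 0.154 (adjusted p = 4.59e-14). Tfeb went from 6.71, 10.02 and 24.1 CPM to 15.8, 67.1 and 134 CPM (2.69 ± 0.117, adjusted p = 3.53e-17, higher in 24 of 24 clones). Monocytic clone 22 was the lowest, inside the progenitor range, and the progenitor library of clone 21 was the highest of its state, on only 11 counts. Monocytic clone 22 also lay below progenitor clone 20 (17.3 CPM). Across the module monocytic clone 19 was the lowest library of its state for 14 of the 34 members. It was also the shallowest monocytic library (1.83 M counts). Its basophil and mast cell markers summed to 10293 CPM, the highest of the monocytic libraries. Its monocyte markers summed to 7332 CPM (3352 to 62009 over monocytic libraries) and its progenitor markers to 701 CPM (89.0 to 1061). The part of these markers and of depth in its low values was not tested.

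**Figure D3:**
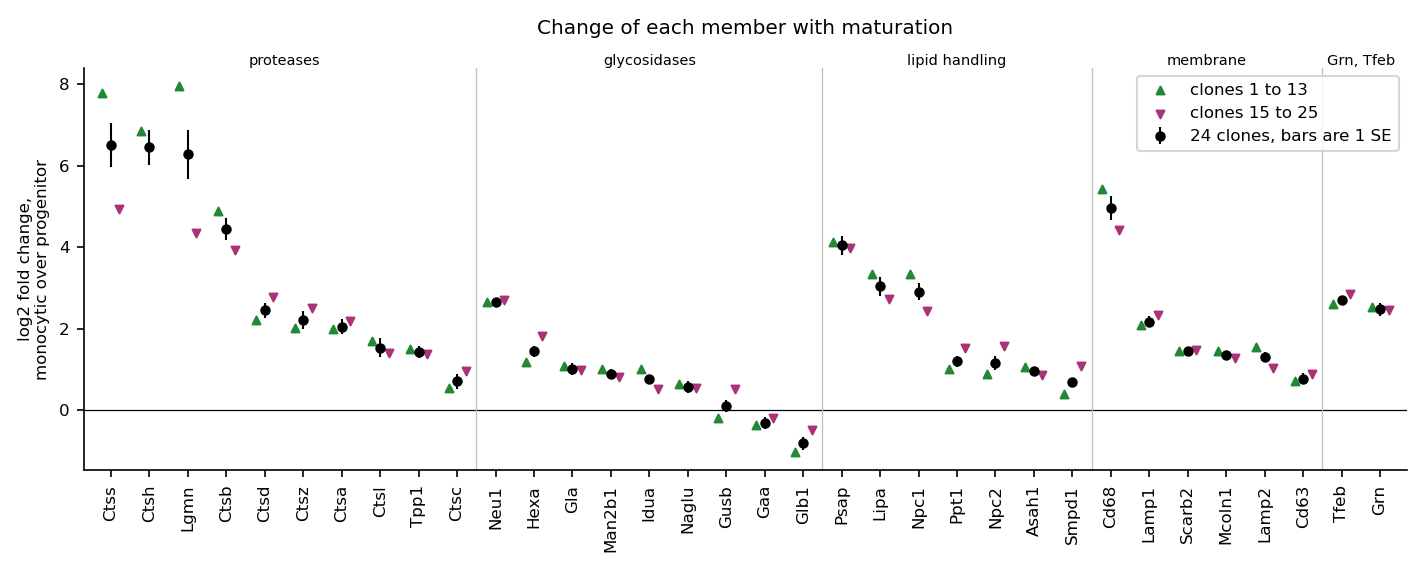
Log2 fold change of each member, monocytic over progenitor (y axis), grouped by role on the x axis; circles with bars are the fit over 24 clones ± 1 SE, and triangles are clones 1 to 13 and clones 15 to 25 fitted alone. Glb1 lies at -0.82, Gaa and Gusb near 0, and Ctss, Ctsh and Lgmn between 6.28 and 6.51; Ctsh has no value in clones 15 to 25.

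The scaling moved the sizes and some calls. With library totals in place of TMM, the median of all genes tested moved to -0.45 and that of the members to 1.01; 29 members were then higher, Glb1 and Gaa lower, and Ctsc and Naglu no longer passed. The share of called genes that were higher went from 49.0% to 31.9%. In clones 15 to 25 alone 29 of 33 tested members were higher and none lower (of 10289 genes tested in that fit, 2992 were higher and 3078 lower), with Glb1 at -0.50 (adjusted p = 0.0833), while clones 1 to 13 alone gave Glb1 at -1.03 (adjusted p = 6.86e-05).

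Per kilobase of exon, which allows genes to be compared with each other, the order of the members shifted. The mean level per kilobase in progenitors was highest for Ctsd (541 CPM per kb), Psap (248), Hexa (157), Lamp1 (152) and Cd63 (142), and in monocytic cells for Psap (4917), Ctsd (3150), Ctss (1494), Ctsb (1241) and Lamp1 (710). Ctss, Ctsb, Ctsz and Cd68 stood ahead of Hexa and Cd63 after maturation. Ctsh was the lowest member in both states, at 0.153 and 6.34 CPM per kb, beside Tfeb at 1.96 and 12.4 and Mcoln1 at 8.26 in monocytic cells.

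The module contains known Tfeb targets, so the promoters of its members were read for the site to which Tfeb and its relatives bind. RefSeq promoter windows (GRCm38.p6, 250 bases before to 50 after each start) matched 30 of the 34 members; Asah1, Ctsb, Ctsh and Npc1 had no entry. The palindrome TCACGTGA, which contains the E-box CACGTG and reads the same on both strands, occurred in 4 of the 30 members (13.3%), Ctsa, Ctsd, Gla and Mcoln1, and in 1.12% of 27025 genes. The shorter CACGTG occurred in 10 members (33.3%), the others being Ctsl, Gaa, Glb1, Lamp1, Lgmn and Naglu, and in 8.09% of genes. The 250 bases upstream of the start are shown for the 4 members with the long form, and for Glb1, the 1 member that fell; capitals mark each CACGTG, or the whole of TCACGTGA where it occurs.
Ctsa, chr2:164833523-164833772, + strand: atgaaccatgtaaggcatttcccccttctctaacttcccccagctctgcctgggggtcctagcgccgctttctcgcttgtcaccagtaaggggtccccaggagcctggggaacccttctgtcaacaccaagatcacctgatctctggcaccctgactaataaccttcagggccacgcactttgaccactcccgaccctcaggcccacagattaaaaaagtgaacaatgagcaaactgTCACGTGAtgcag
Ctsd, chr7:142387828-142388077, - strand: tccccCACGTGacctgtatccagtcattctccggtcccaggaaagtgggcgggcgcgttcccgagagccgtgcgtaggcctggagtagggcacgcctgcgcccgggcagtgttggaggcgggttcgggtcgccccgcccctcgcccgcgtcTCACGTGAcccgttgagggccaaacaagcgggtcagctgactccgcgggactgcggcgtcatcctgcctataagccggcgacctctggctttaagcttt
Gla, chrX:134601006-134601255, - strand: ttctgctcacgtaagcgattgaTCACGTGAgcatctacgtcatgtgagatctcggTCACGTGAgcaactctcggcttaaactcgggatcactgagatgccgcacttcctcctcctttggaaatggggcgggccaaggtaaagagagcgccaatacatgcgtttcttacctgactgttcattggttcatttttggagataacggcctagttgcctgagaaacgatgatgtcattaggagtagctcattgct
Mcoln1, chr8:3500269-3500518, + strand: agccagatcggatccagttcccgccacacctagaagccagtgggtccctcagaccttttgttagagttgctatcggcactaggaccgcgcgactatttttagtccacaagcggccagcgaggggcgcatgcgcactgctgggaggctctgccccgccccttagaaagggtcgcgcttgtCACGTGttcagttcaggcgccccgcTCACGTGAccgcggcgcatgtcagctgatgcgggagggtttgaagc
Glb1, chr9:114400828-114401077, + strand: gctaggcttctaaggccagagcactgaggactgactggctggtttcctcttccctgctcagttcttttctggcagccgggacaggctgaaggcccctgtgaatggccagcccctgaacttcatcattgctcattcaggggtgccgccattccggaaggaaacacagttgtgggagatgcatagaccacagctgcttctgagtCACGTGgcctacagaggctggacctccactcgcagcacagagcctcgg
Positions are those of the first base of CACGTG, also within the long form. The long form lay 12 bases before the start in Ctsa, 98 in Ctsd, 45 in Mcoln1 and, in 2 copies, 227 and 194 in Gla. A further copy in Ctsa lay 5 bases after the start, in the stretch not printed, and the other window of Ctsa held none. The E-box of Glb1 lay 48 bases before its start. The median maturation log2 fold change was 1.44 in the 10 members with CACGTG (-0.82 to 6.28) and 1.43 in the 20 without (0.10 to 6.51), so members with and without the letters spanned much the same range. A match describes the sequence and not binding.

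Other genes of the lysosome moved with the members. Of 28 other lysosomal membrane proteins tested, 25 were higher and 1 lower in monocytic cells (median log2 fold change 1.51), led by the oligopeptide transporter Slc15a3 (6.70) and the metal transporter Slc11a1 (5.55), and of 18 subunits of the proton pump (V-ATPase) 17 were higher and none lower (median 1.29). Of 37 other lysosomal enzymes 28 were higher and 7 lower (median 0.95). Plbd1 (8.95) and the cathepsin Ctsk (6.68) rose furthest, and the cathepsin Ctsf (-2.65) and the phosphatase Acp5 (-1.94) were among those that fell. Mean levels in progenitors were low (Plbd1 0.0743, Ctsk 2.63, Ctsf 2.41 and Acp5 6.93 CPM), which limits these fold changes. The rise of Ctsk was also smaller in the higher-numbered clone set (log2 difference -5.35 ± 0.93, edgeR interaction term, adjusted p = 0.00026). By mean level Gm2a fell furthest, from 869 ± 311 to 429 ± 164 CPM (SD). Of 13 fusion and positioning genes 11 were higher and none lower, Plekhm1 (2.84) the most.

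Tagging, sorting and nutrient sensing genes were listed separately. Of 16 tagging and sorting genes 11 were higher, among them the sorting receptors Sorl1 (5.95) and Sort1 (2.43), and 1 was lower: Gnptab, a subunit of the enzyme that makes the mannose 6-phosphate tag, fell from 288 ± 81.5 to 77.2 ± 22.5 CPM (SD, n = 24; log2 fold change -1.86, edgeR adjusted p = 1.71e-15). Of 19 relatives of Tfeb and nutrient sensing genes 14 were higher and 2 lower, with Tfec at 3.04, Fnip2 at 3.43 and Rragb at -3.75. Of 7 cystatins, inhibitors of cathepsins, 6 were higher and Cst7 was lower (-1.33, from 429 to 178 CPM). The stefins Stfa1, Stfa3 and Stfa2l1 had the largest changes (9.53, 9.17 and 8.95); they are near-identical copies whose reads may be divided among them by the counting, so their separate values are uncertain.

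For 4 members the change with maturation differed between clones 15 to 25 and clones 1 to 13 (interaction term in edgeR's quasi-likelihood test, adjusted p under 0.05), where 23.7% of all genes tested did. Lgmn had a median of 1.49 CPM (0.426 to 19.8) in progenitors of clones 1 to 13 and 7.75 CPM (0.226 to 74.4) in those of clones 15 to 25, with monocytic medians of 501 and 192 CPM; its log2 fold change was smaller by 3.66 ± 0.803 in clones 15 to 25 (adjusted p = 0.0021). Ctss showed the same order, with progenitor medians of 4.92 and 30.6 CPM and monocytic medians of 1659 and 1221 CPM (a difference of -2.88 ± 0.768, adjusted p = 0.0083). For both genes the sets overlapped in each state. Idua separated them more in progenitors, at 20.3 to 29.8 against 28.0 to 72.2 CPM, than in monocytic cells (-0.52 ± 0.186, adjusted p = 0.0444), and Smpd1 was lower in progenitors of clones 15 to 25 (median 15.6 against 36.7 CPM) and changed by more there (0.66 ± 0.166, adjusted p = 0.0057). Over all members the median difference was -0.12, against -0.11 for all genes tested. The labels name no batch for these sets, whose monocytic libraries also differ in depth, so set, depth and clone cannot be told apart. Of the genes called lower or higher, 27.2% were higher in clones 15 to 25 with TMM and 42.9% with library totals; Ctss, Lgmn and Smpd1 passed under every alternative tried, and Idua did not pass under any.

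The clones differed from each other, beyond the state, in few members. The clone terms together passed for 2 of 34 members, Ctsh (adjusted p = 0.0056) and Neu1 (adjusted p = 0.0279), where 11.7% of all genes tested passed; 9 members had an unadjusted p under 0.05. DESeq2 called 11 members and clones 1 to 13 alone none, so the number rests on the method and the set.

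Whether a clone kept its rank through maturation was read from the correlation of log2 CPM (prior count 2) in progenitors with that in monocytic cells. Over 24 clones the members' median Pearson r was 0.17, against 0.19 for all genes tested. Neu1 had r = 0.61 (permutation p = 0.00188, adjusted p = 0.0308; Spearman's rho = 0.58, permutation p = 0.00300, adjusted p = 0.0652). It was 0.67 within clones 1 to 13 and 0.60 within clones 15 to 25, and 0.49 when the 2 clones lying farthest from the median were dropped. Adjusted p-values for Neu1 were 0.0997 after centring on the set, 0.108 without clone 21 and 0.259 after removing the relation to log2 depth. Neutrophil markers were highest in the libraries where Neu1 was highest: among progenitors clones 20 and 21 had 109.8 and 105 CPM of Neu1 and marker sums of 2264 and 1065 CPM, and among monocytic libraries clones 9 and 21 had 577 and 487 CPM of Neu1 and sums of 71108 and 54845 CPM. Monocytic clones 22 and 23 were the lowest for both, at 229 and 243 CPM of Neu1 and sums of 119 and 396 CPM. The progenitor library of clone 9 was the next highest for Neu1 (72.1 CPM) and had the lowest marker sum of its state (21.7 CPM). The markers' part in the correlation was not tested. Asah1 was the other member to pass over all clones, but clones 1 to 13 lay at 175 to 228 CPM in progenitors and clones 15 to 25 at 92.8 to 200.4 CPM, and within the sets r was -0.17 and 0.26. Of all genes tested 8.31% passed, and 2 of 34 members is near that share. The tests covered 11614 genes, and 8 members had an unadjusted p under 0.05.

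**Figure D4:**
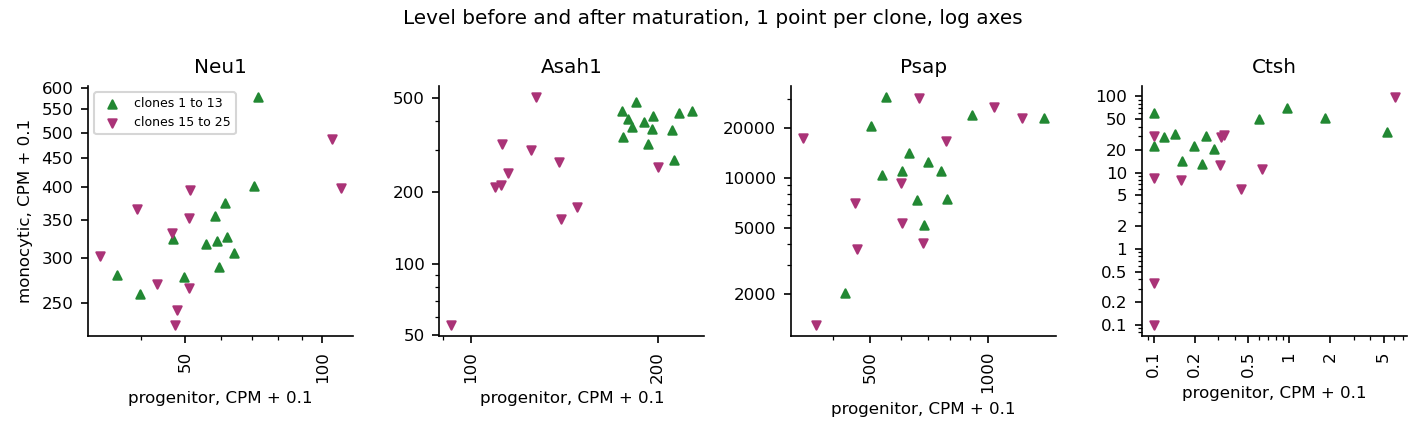
Level before (x axis) and after maturation (y axis) for Neu1, Asah1, Psap and Ctsh, in CPM + 0.1 on log axes, 1 point per clone, coloured by clone set. Neu1 rises with its progenitor level within both sets (r = 0.67 and 0.60), while for Asah1 the sets lie apart along the x axis for all but 1 clone.

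Among the sorted subsets, classical monocytes had the larger lysosomal share: 2.66% and 2.32% of the counts of their 2 libraries, against 1.37% and 1.34% in intermediate and 1.38% and 1.51% in nonclassical monocytes. The protease share overlapped between classical (0.885% and 0.747%) and nonclassical libraries (0.838% and 0.716%). Against classical monocytes, 16 members were lower and 7 higher in nonclassical ones without overlap (all genes tested 33.7% and 26.2%). Ctsa, Ctss, Ppt1 and Cd68 were among the higher ones. Psap made up much of the larger classical share. It had 10523 and 9073 CPM in classical, 2737 and 2094 CPM in intermediate and 2095 and 2323 CPM in nonclassical libraries. The classical libraries lay far above the other 4, which overlapped (nonclassical against classical -2.10 ± 0.21, adjusted p = 0.014; intermediate against classical -1.96 ± 0.21, adjusted p = 0.0298; edgeR, n = 2 per group). Grn fell likewise, from 1618 and 1664 CPM in classical to 526 and 620 CPM in intermediate and 454 and 417 CPM in nonclassical monocytes (-1.46, adjusted p = 0.0398, and -1.86, adjusted p = 0.0144). These 2 comparisons share the classical libraries. The 6 monocyte markers summed to 43329.5 and 38829 CPM in classical, 11101 and 11124 in intermediate and 15740.4 and 24079.9 in nonclassical libraries. Markers of other cells were higher outside the classical libraries: the 6 B cell markers summed to 31.9 and 34.4 CPM in classical, 444 and 403 in intermediate and 2046 and 1876 in nonclassical libraries, and the 6 dendritic cell markers to 34.8 and 51.5, 642 and 888, and 1484.4 and 1484.2 CPM. The 5 primary granule markers, Mpo and Elane among them, summed to 780.4 and 1104 CPM in classical, 4268 and 13035 in intermediate and 145 and 500.5 in nonclassical libraries. The part of these cells in the lower levels was not tested.

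Cd63 went the opposite way. It had only 4.58 and 6.92 CPM in classical monocytes, 168 and 541 CPM in intermediate and 64.4 and 143 CPM in nonclassical monocytes, with no overlap between classical and either other subset (log2 fold changes of 6.01 ± 0.79 and 4.20 ± 0.73, adjusted p = 0.041 and 0.0444). The basophil and mast cell markers summed to 16.7 and 7.40 CPM in classical, 3968 and 8578 in intermediate and 1725 and 7004.5 in nonclassical libraries and, like the primary granule markers, were highest in the intermediate library where Cd63 was highest. The order did not hold throughout: nonclassical replicate 2 had a higher basophil and mast cell sum than intermediate replicate 1 and a lower Cd63 level. The part of these cells in Cd63 was not tested. Hexa and Npc2 were the remaining calls, both lower in nonclassical monocytes. Hexa had 601 and 567 CPM in classical and 266 and 345 CPM in nonclassical libraries (-0.90 ± 0.16, adjusted p = 0.0485), and Npc2 had 779 and 818 against 307 and 336 CPM (-1.27 ± 0.19, adjusted p = 0.0327).

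In number, 1 member was higher and 4 were lower in nonclassical against classical monocytes, where 2.91% of all genes tested were higher and 2.9% lower, and the median was -0.31 against 0.11 for all genes. In intermediate against classical monocytes 1 was higher and 2 were lower (all genes 1.19% and 0.918%; medians -0.56 and 0.12). Between nonclassical and intermediate monocytes edgeR called no member and no gene (0.0% in each direction), with 5 members at an unadjusted p under 0.05, and DESeq2 called 4 members. Several differences that did not pass were large: Lgmn had 82.3 and 81.8 CPM in classical and 269 and 193 CPM in nonclassical libraries (1.56, adjusted p = 0.0519), and Ctsc 1624 and 1259 against 581 and 566 CPM (-1.28, adjusted p = 0.0529). Tfeb had 141 and 130 CPM in classical, 108 and 97.3 CPM in intermediate and 189 and 272 CPM in nonclassical libraries (0.80 for nonclassical against classical, adjusted p = 0.0927). With the replicate number as a block, Hexa no longer passed in nonclassical against classical (adjusted p = 0.0753) nor Grn in intermediate against classical (adjusted p = 0.0512), and the members called numbered 7 and 4. With 2 libraries a group the calls were fragile: without either classical library no member passed in either comparison, and none passed in intermediate against classical whichever 1 of the 6 libraries was left out. The V-ATPase subunits, by their list, were lower for 5 of 18 in nonclassical and 4 of 18 in intermediate against classical monocytes and higher for none, Atp6v1a by -1.84 ± 0.158 and -1.92 ± 0.158.

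**Figure D5:**
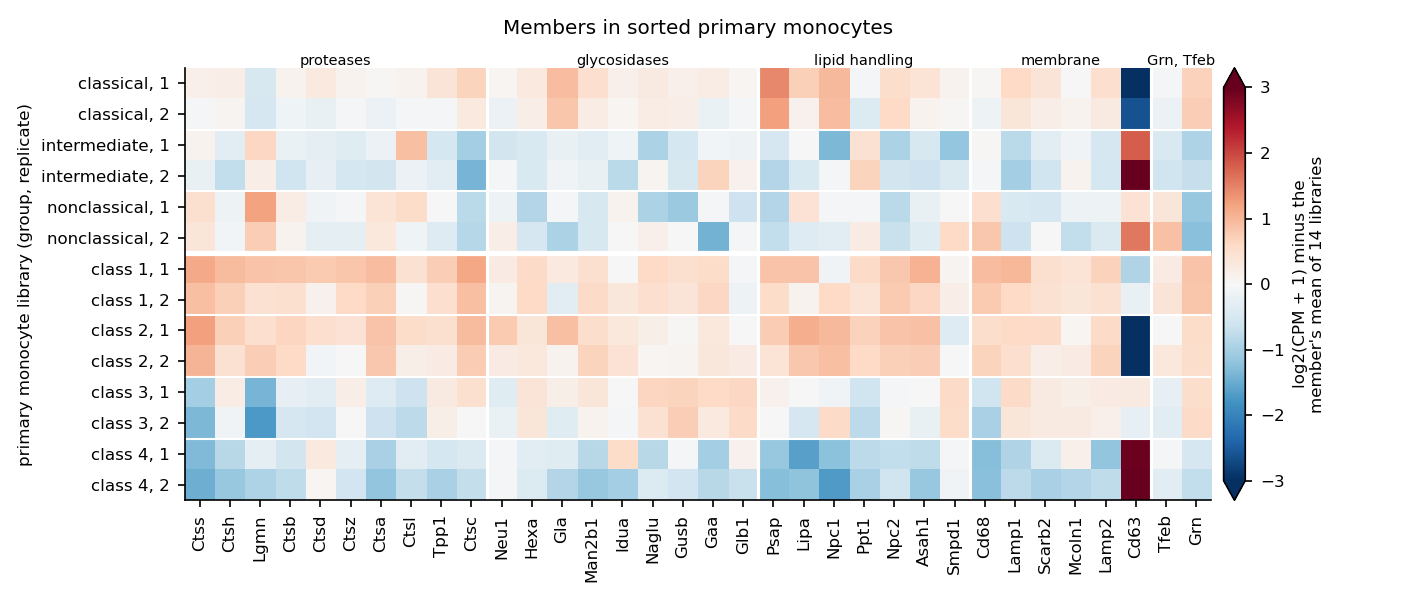
Heat map of the 34 members (x axis, by role) in the 14 primary libraries (y axis, group and replicate); colour is log2(CPM + 1) minus the member's mean over the 14 libraries, with the scale ending at -3 and 3. Class 4 is below the mean for most members, Cd63 runs against them, and Psap and Grn stand out in classical libraries against intermediate and nonclassical ones.

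Classes 1 to 4 differed in most members. In the test over the 4 classes together 29 of 34 members passed (43.8% of all genes tested did); the 5 that did not were Ctsd, Gla, Glb1, Idua and Mcoln1. The share of counts on the members was 2.93% and 2.53% in class 1, 2.702% and 2.39% in class 2, 1.92% and 1.74% in class 3 and 1.23% and 1.06% in class 4, with no overlap between class 3 or class 4 and any other. Pairwise comparisons below share libraries, since each class enters 3 of them.

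Class 4 had the lowest levels. Against class 1, 25 members were lower and 1 higher (all genes 15% and 10.2%), with a median log2 difference of -1.34 against 0.02 for all genes. Ctss had 3285 and 2824 CPM in class 1, 3507 and 3063 in class 2, 735 and 589 in class 3 and 597 and 539 in class 4; it was high in classes 1 and 2 and low in classes 3 and 4 without overlap (class 4 against class 1 -2.42 ± 0.17, adjusted p = 0.00022). Cd68 followed the same division, with 996 and 902 CPM, 759 and 827 CPM, 344 and 268 CPM and 215 and 220 CPM (-2.12). Psap had 6962 and 5695 CPM in class 1, 6541 and 5106 in class 2, 4202 and 3896 in class 3 and 1754 and 1590 in class 4 (-1.91), so that class 3 lay between. Lamp1 and Grn did not pass in class 3 against class 1 and were lower in class 4: Lamp1 had 2857 and 2188, 2198 and 2056, 2145 and 1865, and 777 and 834 CPM in classes 1 to 4 (-1.64), and Grn 1802 and 1784, 1460 and 1433, 1440 and 1494, and 707 and 603 CPM (-1.45). Other members well below class 1 in class 4 were Lipa (-1.93), Ctsa (-1.90), Npc1 (-1.82), Ctsh (-1.80) and Asah1 (-1.78). Tfeb passed the test over all classes (adjusted p = 0.0386) but no pairwise one; it had 176 and 192, 149 and 184, 124 and 119, and 145 and 117 CPM.

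Class 3 differed from class 1 in 12 members, all lower (all genes 7.94% lower and 5.44% higher; members' median -0.41). The monocyte markers summed to 22849 and 18649 CPM in class 3, against 56483 and 52196 in class 1, the primary granule markers to 6522 and 8149.5 against 779 and 1062, and the neutrophil markers to 8295 and 4685 against 864 and 1316. Their part in the lower levels of class 3 was not tested. Of the 12 members, Lgmn (-2.23), Ctss (-2.19), Cd68 (-1.62), Ctsa (-1.32), Ppt1 (-1.16) and Npc2 (-0.79) passed whichever 1 of the 8 libraries was left out. Lgmn was lowest in class 3, at 43.8 and 34.8 CPM. It had 210.2 and 161 CPM in class 1, 164 and 194 in class 2 and 96.0 and 60.2 in class 4. Besides Cd63 it was the member that passed as higher in class 4 than in class 3 (0.99, edgeR adjusted p = 0.0234). Without overlap 4 members were higher and 26 lower in class 4 (all genes tested 31.5% and 33.9%). Ctsd and Neu1 were the others that were higher. Ctsd had 1000 and 854 CPM in class 4 against 657 and 549 in class 3. Against class 2, class 3 had 14 members lower and 3 higher, namely Cd63, Gusb and Smpd1 (all genes 12.4% and 11.8%), and class 4 had 26 lower and Cd63 higher (21.4% and 19.5%). Against class 3, class 4 had 21 lower and 2 higher (15.7% and 13%). Class 2 and class 1 differed in 1 member, Cd63, which was lower in class 2 (all genes 5.95% lower and 3.34% higher).

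Cd63 again ran against most members in class 4. In class 2 against class 1 it was lower. Without overlap 11 of 34 members were lower there, near the share of all genes tested (33.9%), and 4 were higher (all genes 25.1%). Cd63 levels were 24.8 and 40.2 CPM in class 1, 4.96 and 3.06 in class 2, 57.2 and 39.6 in class 3 and 371 and 414 in class 4. Class 2 lay below and class 4 above all other class libraries (class 2 against class 1 -2.93 ± 0.33, edgeR adjusted p = 0.0012, and class 4 against class 1 3.60). The basophil and mast cell markers summed to 5.26 and 9.74 CPM in class 1, 875 and 362 in class 3 and 1967 and 919.6 in class 4, and in class 2 5 of their 6 genes (Cpa3, Fcer1a, Ms4a2, Prss34 and Cma1) had no count. Class 4 also held the most neutrophil marker RNA (33298 and 44665 CPM, against 864 to 8295 in classes 1 to 3) and the least monocyte marker RNA (16591 and 16542 CPM, against 22849 and 18649 in class 3 and 52196 to 69383 in classes 1 and 2). Its 6 erythroid markers summed to 3927 and 4942 CPM, against 1.79 to 114 in classes 1 to 3, its B cell markers to 2571 and 2087, against 52.9 to 366, and its primary granule markers to 10054 and 11295, against 64.4 to 8149.5. The part of these cells in the lower levels of class 4 was not tested. With library totals in place of TMM the median of all genes in class 4 against class 1 moved to 0.24, the share of called genes that were higher from 40.5% to 60.5%, and 23 members were still lower and Cd63 higher. Among the other lysosomal genes 24 of 38 enzymes and 13 of 29 membrane proteins were lower in class 4 than in class 1 and none higher, the iduronate sulfatase Ids by -2.71 ± 0.328 and the nucleoside transporter Slc29a3 by -2.28 ± 0.174.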

How the data were processed

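RNA-seq counts were deposited by the authors as 1 table of whole-number counts per gene for 62 libraries; the build was mm9 and the tools were STAR 2.7.3a and HTSeq 0.6.0, as the submitters' processing notes list them. The annotation release, strand setting and filters are not given in the sources used here, so reads of overlapping or antisense genes cannot be told apart. Of the table's columns, 1 matched no sample and was not used. Groups came from the sample labels. The members, gene lists and tests were chosen with earlier results of these data known. All 34 members are named; of each related list the genes past the threshold with the largest maturation change (up to 3, or 2 in the primary comparisons) and up to 2 that moved against their list are named. Gm2a was named beside these for its fall in mean level. Of the list genes, 1 (Vamp7) had no row.

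Genes were filtered with filterByExpr (minimum count 10), scaled by TMM and tested with edgeR 4.0.16 (quasi-likelihood F test, R 4.3.3), with Benjamini-Hochberg adjustment and a threshold of 0.05. The clone fit had clone as block, since the series design pairs progenitor and mature cells by clone: deviations of a clone's 2 libraries correlated with a median r of 0.17, against -0.01 with other clones, and above 0.1 in 16 of 24 clones. The 6 subset libraries and the 8 class libraries had 1 fit each, without a block; replicate numbers come from the labels, and deviations of same-numbered subset libraries correlated at 0.15, 0.21 and 0.48. Standard errors are the log2 fold change over the square root of F. Printed CPM use TMM factors over all 62 libraries; a value after ± is an SE beside a log2 fold change and otherwise an SD. Correlations used 100000 permutations, 2-sided. Levels per kilobase used GENCODE M21 exon lengths, an annotation of a later build than mm9. The fitting was run on simulated counts with 1 mean per gene, known folds added and no clone or replicate effects, so it did not test the blocks. Alternatives were DESeq2 size factors, library totals, no filter, DESeq2 1.42.0, the replicate block and leaving out libraries or clone sets. Depth, 0.362 to 47.3 M counts, sets the precision of low members such as Ctsh. In the progenitor library of clone 21, Npc1 had 4 counts, Mcoln1 7 and Tfeb 11.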

Additional observations from a re-analysis of the deposited data

Results flagged for a closer look

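The change with maturation differed between the 2 clone sets, by the interaction term in edgeR's quasi-likelihood test, for 4 members. On the log2 scale the difference, clones 15 to 25 minus clones 1 to 13, was -3.66 for Lgmn, -2.88 for Ctss, -0.52 for Idua and 0.66 for Smpd1. The labels give no reason for the gap in clone numbers. Depth and the range of monocyte marker sums differ between the sets, so set, depth and clone cannot be told apart. The markers' part was not tested.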

How the results depend on the processing

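Of 2390 values for single genes recomputed under an alternative, 2184 kept their direction and side of the threshold, 203 no longer passed, 2 newly passed and 1 reversed: the correlation of Asah1, at -0.17 in clones 1 to 13 alone. Of 152 counts of members, 120 stayed within 1.5 times. The cause of the other changes was not tested. Clone effects (2 members) numbered 4 with DESeq2 size factors, 11 with DESeq2 (4122 of all genes, against 1357), 0 in clones 1 to 13 (36 genes) and 1 in clones 15 to 25 (387 genes). Correlations (2 members) numbered 1 with DESeq2 size factors and 0 with Spearman's rho, centred on the set, in clones 1 to 13, in clones 15 to 25, without clone 21 and on residuals of depth; over all genes these gave 921, 423, 135, 0, 71, 881 and 106, against 965.

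DESeq2 called 14 members in nonclassical against classical (3366 genes, against 811), 14 in intermediate against classical (3102 genes, against 294) and 4 in nonclassical against intermediate (1205 genes, against 0). Without the filter intermediate against classical gave 6, and class 2 against class 1 gave 3 (2325 genes, against 1272; DESeq2 2215). Class 3 against class 1 gave 18 without the filter (2730 genes, against 1831; DESeq2 2785). Leaving out 1 library gave 0 to 4 members in nonclassical against classical and 0 to 0 in intermediate against classical, where leaving out any 1 library ended the calls. It gave 6 to 16 in class 3 against class 1, 9 to 19 in class 3 against class 2 and 14 to 23 in class 4 against class 3; the lowest count came without replicate 2 of class 3 in the first 2 and without replicate 1 of class 3 in the last.

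With library totals the share of called genes that were higher moved from 40.6% to 59.7% in class 3 against class 1, from 48.8% to 66.5% in class 3 against class 2 and from 47.7% to 63.5% in class 4 against class 2. For the set difference it was 41.8% with DESeq2 size factors, 44.8% with DESeq2 and 40% without the filter.

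Among classes, deviations of same-numbered libraries correlated at -0.01 to 0.15. With 2 libraries a group this does not settle whether same-numbered libraries share an animal or a sort. With the replicate block the members called were 7 (670 genes) in nonclassical against classical, 4 (263 genes) in intermediate against classical, 0 (0 genes) between nonclassical and intermediate, 30 (5557 genes) over the classes together, 2 (1233 genes) in class 2 against class 1 and 14 to 27 (1801 to 5303 genes) in the other pairs. Maturation without the block on clone gave 32 members (8913 genes, against 9132). Low counts limit Ctsh, Lgmn and Ctss in progenitors, and 2 libraries a group limit every primary comparison. Ctsh had no count in progenitor clones 11 and 12, whose libraries held 14.6 and 14.4 M counts.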
